A study of Mus musculus with 12 samples.

Results

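A set of 9 long non-coding RNAs was taken from the deposited gene table by symbol, out of 46731 genes: the nuclear RNAs Malat1 and Neat1, the small nucleolar RNA hosts Snhg1 and Gas5, and the imprinted RNAs H19, Kcnq1ot1, Meg3, Rian and Mirg. Malat1 lost most of its level after Ddx5 knockdown, from 175.9 ± 11.98 to 62.3 ± 17.3 FPKM (SD, n = 3) in medium. Snhg1 fell after knockdown in both media and rose with cytokines in control cells, Neat1 fell after knockdown in medium and with cytokines in control cells, and Gas5 passed no test. The imprinted RNAs were listed at 0 or at a few fragments, so the imprinted part of the set could be described only as not detected, or barely detected, at this depth.

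RNA sequencing was done on ATDC5 cells, a chondrogenic line derived from a mouse teratocarcinoma, in 4 groups of 3 libraries. Cells carried a stably integrated lentiviral hairpin under the U6 promoter with puromycin selection, either against Ddx5 (shRNA-Ddx5), which codes for a DEAD-box RNA helicase, or the negative control vector (shRNA-NC, whose genotype the labels give as wildtype). They were kept for 6 h in medium alone or with IL-1β at 5 ng/ml and TNF-α at 25 ng/ml, an inflammatory stimulus used to model osteoarthritis in cartilage cells. The study describes 3 biologically independent experiments but the sources used here do not say whether each hairpin line was a pool or a clone, and only 1 hairpin against Ddx5 is named in them, so an effect of Ddx5 loss and one of that hairpin or line cannot be told apart.

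Values were fragments per kilobase of exon scaled by a size for each library (FPKM), and each library held 14119199 to 19276520 fragments on genes. The size that the values imply was not that count. It was 20612200 beside 19276520 fragments in shRNA-NC medium library 1, and 15905800 beside 16626919 in shRNA-Ddx5 cytokine library 2. How this size was set was not tested. Ddx5 lay between 294 and 337 FPKM in shRNA-NC medium, 90.7 and 118 FPKM in shRNA-Ddx5 medium, 301 and 327 FPKM in shRNA-NC with cytokines, and 93.6 and 104 FPKM in shRNA-Ddx5 with cytokines, so the hairpin labels held in every library. Of 16 chondrocyte markers, 6 reached 1 FPKM in 3 libraries. The summed level of all 16 was 42.0 to 48.3 FPKM in shRNA-NC medium and 33.5 to 35.9 in shRNA-Ddx5 medium. With cytokines it was 15.2 to 21.8 in shRNA-NC and 13.6 to 14.3 in shRNA-Ddx5. Single markers went both ways after knockdown: in medium mean Col2a1 went from 12.4 to 0.899 FPKM and mean Col11a1 from 0.897 to 4.78. With cytokines Col2a1 went from 6.33 to 0.779 FPKM and Col11a1 from 0.284 to 3.04. The 8 fibroblast markers summed to 710.0 to 759 FPKM in shRNA-NC medium, 2378 to 2476 in shRNA-Ddx5 medium, 370 to 606 in shRNA-NC with cytokines and 1803 to 2095 in shRNA-Ddx5 with cytokines. Mitochondrial transcripts took 1.81 to 2.05% of fragments in shRNA-NC medium, 2.16 to 2.83% in shRNA-Ddx5 medium, 1.70 to 2.88% in shRNA-NC with cytokines and 1.65 to 1.78% in shRNA-Ddx5 with cytokines, so that the hairpins were apart in medium and overlapped with cytokines. The marker sums were apart between the hairpins in each medium, and the part of these values in the results on the long non-coding RNAs was not tested. In bulk RNA, fewer cells making an RNA and less of that RNA per cell cannot be told apart.

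Malat1 and Neat1 are neighbours that stay in the nucleus. Malat1 gathers at nuclear speckles, where splicing factors are stored, and Neat1 is the scaffold of paraspeckles, bodies that hold RNA-binding proteins such as SFPQ and NONO. Neither the Malat1 RNA nor the long form of Neat1 ends in an ordinary poly(A) tail: RNase P cuts each one, and U-rich stretches fold back on a genome-encoded A-rich stretch in a triple helix that protects the new end. Snhg1 and Gas5 work differently, since their introns carry box C/D small nucleolar RNAs (snoRNAs), which guide chemical modification of ribosomal RNA, while the spliced exons leave the nucleus and are known targets of nonsense-mediated decay. H19 and Kcnq1ot1 come from a pair of imprinted regions on chromosome 7, and Meg3, Rian and Mirg are read from the maternal copy of the Dlk1-Dio3 domain on chromosome 12.

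In the coordinates of the table, whose chromosome accessions belong to the GRCm39 assembly, Malat1 is a single block of 6983 bases at chr19:5845718-5852700 on the minus strand. Neat1 is one block of 20773 bases at chr19:5874736-5895508 on the same strand, and 22.0 kb separate them. The table gives Neat1 the length of its long form, so the short and long forms were not separated. Because the libraries were made from RNA bound to poly(T) beads, the triple-helix ends are shown here as the part of both RNAs that stands in for a tail. The sequences are read 5′ to 3′ from the GRCm39 genome on the minus strand, at chr19:5846010-5846098 for Malat1 and chr19:5874736-5874830 for Neat1. Capitals mark the 3 stretches of 11 or more letters that the last 400 bases of both genes had in common, namely a first U-rich stretch, a second one, and the A-rich stretch (T stands for U).
Malat1: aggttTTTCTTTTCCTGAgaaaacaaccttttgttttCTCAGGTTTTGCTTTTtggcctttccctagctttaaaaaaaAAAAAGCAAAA
Neat1: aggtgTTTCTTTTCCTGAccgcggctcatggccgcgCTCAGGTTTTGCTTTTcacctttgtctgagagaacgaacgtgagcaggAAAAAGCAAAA
In Neat1 the A-rich stretch was the last of the table's gene, whereas in Malat1 292 further bases of the gene followed it. The same letters were looked for, on the sense strand, in the last 400 bases of each of the 37587 genes of at least that length on chromosomes 1 to 19 and X. TTTCTTTTCCTGA stood in 3 of these windows (0.00798%), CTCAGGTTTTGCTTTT in 2 (0.00532%) and AAAAAGCAAAA in 52 (0.138%). Malat1 and Neat1 were the only genes with all of them, as the choice of letters fixed for that pair. A match says only that the letters are present.

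Malat1 measured 185, 162 and 181 FPKM in the shRNA-NC libraries kept in medium and 50.2, 82.2 and 54.6 FPKM in the shRNA-Ddx5 libraries. With cytokines it measured 92.7, 93.8 and 117 FPKM in shRNA-NC and 52.8, 42.0 and 74.9 FPKM in shRNA-Ddx5. The shRNA-NC libraries in medium were the highest of all 12, the shRNA-NC libraries with cytokines came next, and each shRNA-Ddx5 library was below every shRNA-NC library, whichever the medium. Groups apart were common: they did not overlap for 53.5% of all genes tested after knockdown in medium and 61.6% with cytokines. For cytokines the shares were 45.7% in shRNA-NC and 47.3% in shRNA-Ddx5 cells, the background wherever groups are given as apart below. The level after knockdown was 35.4% of control in medium, a log2 fold change of -1.51 (SE 0.21; limma on log2(FPKM + 1), Benjamini-Hochberg adjusted p = 0.000192). With cytokines it was 56.0% of control, a log2 fold change of -0.86 (SE 0.21, limma adjusted p = 0.00674), which missed the threshold when genes with low values were kept in the fit (adjusted p = 0.0510).

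Cytokines lowered Malat1 in shRNA-NC cells to 57.4% of its level in medium (log2 fold change -0.80, SE 0.21, limma adjusted p = 0.0139; adjusted p = 0.0920 with low genes kept). In shRNA-Ddx5 cells the groups with and without cytokines overlapped, and the log2 fold change was -0.14, with a 95% interval from -0.61 to 0.32 (limma adjusted p = 0.658). The difference between the knockdown effects in the 2 media was 0.66 on the log2 scale (interval -0.01 to 1.32) and did not pass the threshold (limma adjusted p = 0.216), so a smaller effect with cytokines was not shown. Malat1 stood low among long non-coding RNAs in medium: only 5 of 450 tested had a lower log2 fold change after knockdown, and 65 of all 12368 genes tested. With cytokines 30 of the 450 and 529 of the 12368 were lower. Fold changes on the log2(FPKM + 1) scale understate those of low genes, so these ranks also depend on level.

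Neat1 measured 6.19, 5.71 and 4.37 FPKM in shRNA-NC medium and 2.90, 3.75 and 2.94 FPKM in shRNA-Ddx5 medium. With cytokines it measured 2.18, 3.11 and 3.74 FPKM in shRNA-NC and 3.83, 3.33 and 3.75 FPKM in shRNA-Ddx5. The 3 shRNA-NC libraries in medium stood above the other 9, which shared one range. Knockdown in medium left 59.0% of the control level, a log2 fold change of -0.61 (SE 0.15, limma adjusted p = 0.00733). Cytokines in shRNA-NC cells left 55.5% of the level in medium, a log2 fold change of -0.69 (SE 0.15, limma adjusted p = 0.00552).

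With cytokines, Neat1 was 1.21 times as high in shRNA-Ddx5 as in shRNA-NC cells, with overlapping groups, and the log2 fold change of 0.23 (interval -0.11 to 0.57) did not pass (limma adjusted p = 0.252). Within shRNA-Ddx5 cells cytokines gave a log2 fold change of 0.15 (interval -0.19 to 0.49, limma adjusted p = 0.513). Of the 4 RNAs tested, Neat1 was the one whose knockdown effect differed between the media, by 0.84 on the log2 scale (SE 0.22, limma adjusted p = 0.0389), where 8.21% of all genes tested passed and 3.46% did so upwards. That call was lost in 9 of 12 fits that left out 1 library, with adjusted p up to 0.1004, and with no filter on low values (adjusted p = 0.158).

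**Figure D1:**
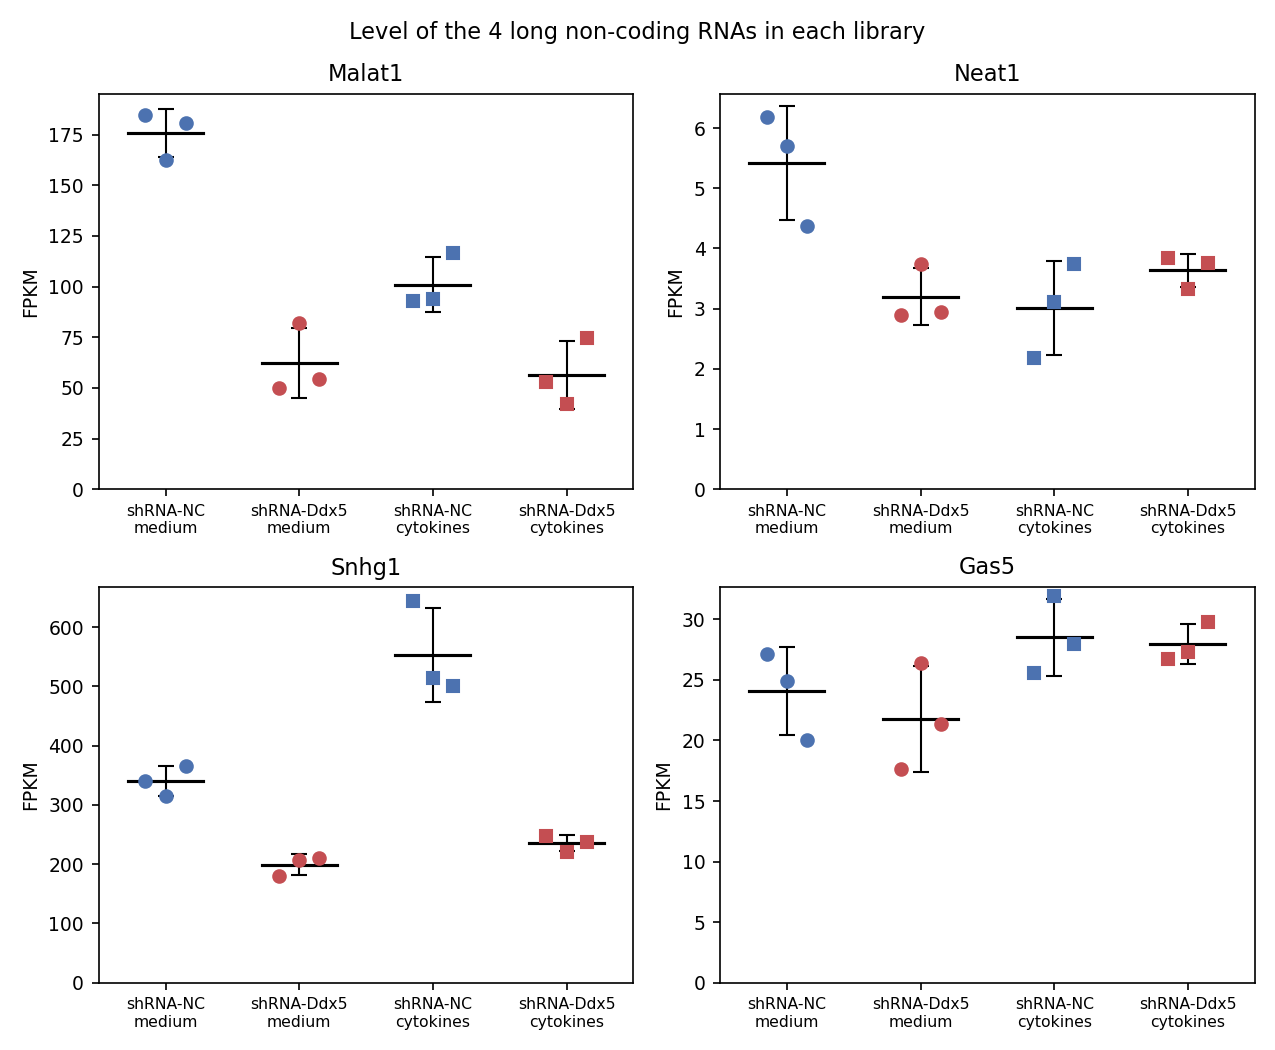
FPKM of Malat1, Neat1, Snhg1 and Gas5 on axes that start at 0, with 1 point per library, the group mean as a long bar and the SD as whiskers (n = 3), circles for medium, squares for cytokines, blue for shRNA-NC and red for shRNA-Ddx5. Malat1 and Snhg1 are lower in every shRNA-Ddx5 library than in any shRNA-NC library, Neat1 is higher in shRNA-NC medium than elsewhere, and the Gas5 groups lie close together.

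Since both RNAs sit side by side and are nuclear, their joint share of all fragments on genes was compared as well. Malat1 made up most of it in every library, so the joint share mostly restates the Malat1 result. It held 0.138 of 0.152% in shRNA-NC medium library 1 and 0.0280 of 0.0346% in shRNA-Ddx5 cytokine library 2. Malat1 and Neat1 took 0.135 to 0.152% of fragments in shRNA-NC medium, 0.0406 to 0.0666% in shRNA-Ddx5 medium, 0.0674 to 0.0906% in shRNA-NC with cytokines and 0.0346 to 0.0590% in shRNA-Ddx5 with cytokines. Each comparison of 3 with 3 libraries in which the groups did not overlap gave an exact two-sided permutation p of 0.1, the smallest that 20 permutations allow. Over both media together, with labels permuted within each medium, the share after knockdown fell by 0.0625 percentage points (exact permutation p = 0.005, the smallest of 400 permutations). Over both hairpins, with cytokines it fell by 0.0352 percentage points (exact permutation p = 0.03), nearly all of it from shRNA-NC cells, where the difference was -0.0659 against -0.00456 in shRNA-Ddx5 cells. That cytokine value lost its call without the shRNA-Ddx5 medium library 2 (exact permutation p = 0.06) or the shRNA-Ddx5 cytokine library 2 (exact permutation p = 0.055).

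After knockdown Malat1 changed more than its neighbour. Malat1 was 28.4 to 41.4 times the FPKM of Neat1 in shRNA-NC medium and 30.1 to 42.5 times in shRNA-NC with cytokines, against 17.3 to 21.9 and 12.6 to 19.9 times in the matching shRNA-Ddx5 libraries. The log2 ratio of Neat1 to Malat1 was 0.97 higher after knockdown over both media (exact two-sided permutation p = 0.005 within media, Benjamini-Hochberg adjusted p = 0.01 over 4 ratio tests). With cytokines it differed by 0.14 (exact permutation p = 0.43, adjusted p = 0.43).

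The proteins that bind the same bodies were read from lists. Of 24 paraspeckle proteins, all tested, 6 rose and 5 fell after knockdown in medium and 3 rose and 3 fell with cytokines, with median log2 fold changes of 0.06 and 0.01 beside 0.03 and 0.01 over all genes. Over all genes tested, 25.3% rose and 21.7% fell in medium and 23.5% rose and 22.1% fell with cytokines, the background for this list and for each list read below. Sfpq and Nono, the core pair of the paraspeckle, had log2 fold changes of 0.0008 and 0.11 in medium and of -0.18 and -0.13 with cytokines, none past the threshold; they were picked out after their values were seen. Matr3, an RNA-binding protein of the nuclear matrix, fell from 69.3 ± 2.35 to 38.9 ± 12.8 FPKM in medium (log2 fold change -0.87, limma adjusted p = 0.00354). Taf15, an RNA-binding protein that takes part in transcription, fell in medium (log2 fold change -0.81, limma adjusted p = 0.00416), and Ss18l1, a chromatin remodelling subunit, fell with cytokines (log2 fold change -0.83, limma adjusted p = 5e-05).

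Nuclear speckle proteins also moved in both directions: of 20 tested, 6 rose and 4 fell in medium, and 2 rose and 5 fell with cytokines, with median log2 fold changes of -0.23 and -0.06. In medium the share that rose, 6 of 20, stands beside 25.3% of all genes, and the share that fell with cytokines, 5 of 20, beside 22.1%. Srsf2, a serine- and arginine-rich splicing factor of the speckle, rose from 90.7 ± 1.91 to 162 ± 6.56 FPKM in medium (log2 fold change 0.83, limma adjusted p = 4.89e-06). Clk1, a kinase that phosphorylates such factors, fell (log2 fold change -0.79, limma adjusted p = 0.00607), as did Ppig, a speckle cyclophilin (log2 fold change -0.63, limma adjusted p = 0.0155).

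RNase P, which makes the Malat1 3′ end, and the RNA exosome, which trims and degrades nuclear RNA, were read together. The list held 22 tested subunits and cofactors, with Rbm7, Zcchc8 and Mtrex among the cofactors. In medium 7 rose and 2 fell after knockdown, and with cytokines 10 rose and 2 fell, with median log2 fold changes of 0.20 and 0.24, where 25.3% and 23.5% of all genes rose and 21.7% and 22.1% fell. The RNase P subunit Rpp40 rose from 4.55 ± 0.795 to 14.9 ± 1.88 FPKM in medium (log2 fold change 1.52, limma adjusted p = 9.55e-06). Rpp21 and Pop5, also RNase P subunits, rose with cytokines by log2 fold changes of 0.98 (limma adjusted p = 0.00368) and 0.92 (limma adjusted p = 0.000148). These lists were chosen with earlier results of the same libraries known, and nothing particular to them was tested.

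Snhg1 lies at chr19:8700851-8703690 on the plus strand, with exons of 476 bases in all, and Gas5 at chr1:160862171-160866109 on the plus strand, with exons of 620 bases. Each spans 8 snoRNA genes of the table, all listed apart from their host. Gas5 also overlaps Zbtb37 on the other strand, and strand use in counting is not given in the sources used here, so reads of the pair could not be told apart. Exons this short are close to the length of a sequenced fragment, which makes their level per kilobase less certain beside that of a long RNA. The snoRNAs on which the values below turn are shown 5′ to 3′ on the plus strand of GRCm39, with box C (TGATGA) and box D (CTGA), the motifs that bind the snoRNA proteins, in capitals. The first pair lies in Snhg1 and rose with cytokines in shRNA-Ddx5 cells, SNORD31 of Snhg1 did not pass there, and Snord47 had the lowest adjusted p among those of Gas5, which did not pass. They stand at chr19:8701357-8701428, chr19:8702232-8702307, chr19:8702958-8703024 and chr1:160865662-160865726.
SNORD25: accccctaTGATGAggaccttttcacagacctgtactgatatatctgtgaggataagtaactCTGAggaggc
SNORD28: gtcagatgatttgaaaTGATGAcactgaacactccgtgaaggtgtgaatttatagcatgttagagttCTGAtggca
SNORD31: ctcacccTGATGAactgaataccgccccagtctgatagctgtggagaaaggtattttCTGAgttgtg
Snord47: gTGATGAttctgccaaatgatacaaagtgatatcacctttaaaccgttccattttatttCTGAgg
Searched on the sense strand, box C followed by box D in exactly these letters was in 12 of the 16 snoRNAs of the 2 hosts and in 306 of 1251 snoRNA genes of the table on the same chromosomes (24.5%), a group that also holds snoRNAs of the other class. Capitals mark the first TGATGA and the last CTGA.

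Snhg1 was the most abundant of the 9, and ranked 3 among the tested long non-coding RNAs by mean FPKM. It measured 341, 315 and 365 FPKM in shRNA-NC medium and 179, 207 and 211 FPKM in shRNA-Ddx5 medium. With cytokines it measured 644, 514 and 500.0 FPKM in shRNA-NC and 248, 221 and 237 FPKM in shRNA-Ddx5. No 2 groups overlapped: shRNA-NC with cytokines was highest, shRNA-NC medium next, then shRNA-Ddx5 with cytokines, and shRNA-Ddx5 medium lowest.

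After knockdown Snhg1 kept 58.5% of the control level in medium (log2 fold change -0.77, SE 0.11, limma adjusted p = 0.000277) and 42.5% with cytokines (log2 fold change -1.22, SE 0.11, limma adjusted p = 1.17e-05). Cytokines raised it 1.62 times in shRNA-NC cells (log2 fold change 0.69, SE 0.11, limma adjusted p = 0.000903). In shRNA-Ddx5 cells it was 1.18 times as high with cytokines, with groups apart but a log2 fold change of 0.24 (interval -0.01 to 0.49) that did not pass (limma adjusted p = 0.149). The difference between the knockdown effects, -0.45 on the log2 scale (interval -0.81 to -0.10), did not pass either (limma adjusted p = 0.117).

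Gas5, known as an RNA that accumulates in growth-arrested cells, measured 27.2, 24.9 and 20.1 FPKM in shRNA-NC medium and 17.7, 26.4 and 21.4 FPKM in shRNA-Ddx5 medium. With cytokines it measured 25.6, 31.9 and 27.98 FPKM in shRNA-NC and 26.7, 27.3 and 29.8 FPKM in shRNA-Ddx5. Groups overlapped in each knockdown comparison and for cytokines in shRNA-NC cells, while in shRNA-Ddx5 cells the 3 cytokine libraries lay just above the 3 in medium. The knockdown log2 fold changes were -0.14 (interval -0.46 to 0.18, limma adjusted p = 0.446) in medium and -0.02 (interval -0.34 to 0.30, limma adjusted p = 0.909) with cytokines. Cytokines gave 0.24 (interval -0.08 to 0.56, limma adjusted p = 0.227) in shRNA-NC and 0.36 (interval 0.04 to 0.68, limma adjusted p = 0.0914) in shRNA-Ddx5 cells, and the latter passed when shRNA-Ddx5 medium library 2 was left out (adjusted p = 0.0281).

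Over the 4 RNAs that reached 1 FPKM in 3 libraries, a filter that the other 5 of the 9 did not pass, 3 fell after knockdown in medium, where 21.7% of all genes tested fell and 47% moved in either direction. With cytokines 2 fell after knockdown, where 22.1% of all genes fell and 45.6% moved either way. Cytokines lowered 2 and raised 1 in shRNA-NC cells, where 15.2% of genes fell and 18.6% rose, 33.8% in all, and they moved 0 in shRNA-Ddx5 cells by the limma test, where 27% of genes moved, 13.5% in each direction. Before adjustment, Gas5 alone was under 0.05 there. The scaling set which direction held most of the calls: of genes called after knockdown in medium 53.8% were up as deposited and 42.4% once scaled to the sum of fragments on genes, of those called with cytokines in shRNA-NC cells 55.1% were up as deposited, 42.2% by the sum and 43.4% after quantile normalization, and in shRNA-Ddx5 cells 49.97% were up as deposited and 39.0% after quantile normalization. The calls of the 4 RNAs kept their counts and directions under both scalings. With 4 RNAs these shares describe the set and do not set it apart from other genes.

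**Figure D2:**
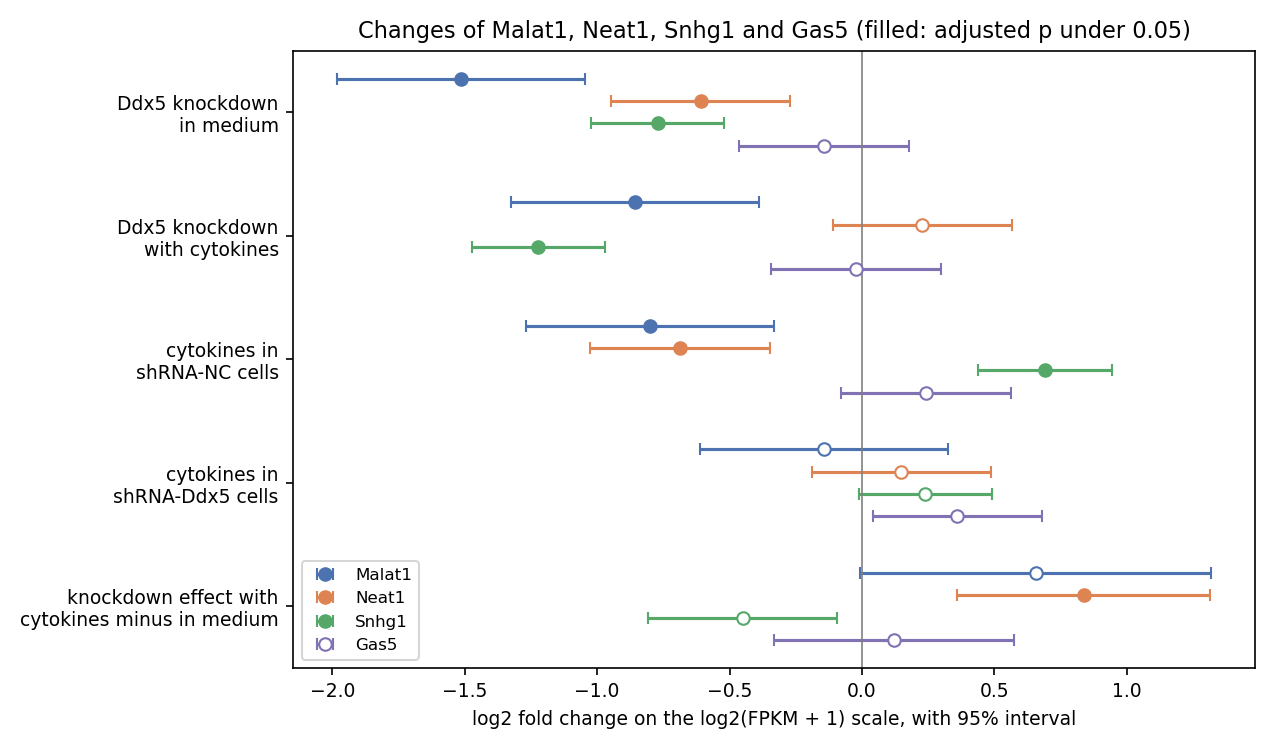
Log2 fold changes of Malat1, Neat1, Snhg1 and Gas5 on the log2(FPKM + 1) scale, with 95% intervals from the limma fit, for the 4 comparisons and the difference between the knockdown effects. Filled points passed an adjusted p of 0.05: 3 in the first comparison, 2 in the second, 3 in the third, none in the fourth, and Neat1 in the last.

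The hosts differed from each other after knockdown. Snhg1 was 12.6 to 18.2 times the FPKM of Gas5 in shRNA-NC medium and 16.1 to 25.2 times in shRNA-NC with cytokines, against 7.87 to 10.2 and 7.95 to 9.27 times in the matching shRNA-Ddx5 libraries. The log2 ratio of Gas5 to Snhg1 was 0.91 higher after knockdown over both media (exact two-sided permutation p = 0.005 within media, Benjamini-Hochberg adjusted p = 0.01 over 4 ratio tests). Cytokines changed it by -0.15 (exact permutation p = 0.385, adjusted p = 0.43), with -0.44 in shRNA-NC and 0.14 in shRNA-Ddx5 cells.

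In RNA bound to poly(T) beads, whether fragments on snoRNA genes came from mature snoRNAs or from unspliced host RNA was not tested. The snoRNA genes inside the hosts gave another view of the same loci. Of 8 in Snhg1, all tested, 0 passed after knockdown by limma, with log2 fold changes of -1.36 to -0.02 in medium, and of -1.17 to 0.31 under stimulation, on few fragments each. Before adjustment, 1 was under 0.05 in medium and 0 with cytokines. Of 8 in Gas5, 7 were tested and 0 passed in any comparison by limma, and 1, Snord47, was under 0.05 before adjustment, with cytokines in shRNA-NC cells (log2 fold change -0.81, limma adjusted p = 0.0669). With cytokines in shRNA-Ddx5 cells, SNORD25 rose by a log2 fold change of 1.56 (limma adjusted p = 0.0303). SNORD28 rose by 2.36 (limma adjusted p = 0.00983), while SNORD30 had 0.82 (limma adjusted p = 0.0914) and SNORD31 -0.58 (limma adjusted p = 0.331). In shRNA-NC cells cytokines gave 1.00 for SNORD25 (limma adjusted p = 0.127) and 1.47 for SNORD28 (limma adjusted p = 0.0672). The difference between the hairpin lines did not pass for SNORD25 (limma adjusted p = 0.660) or SNORD28 (limma adjusted p = 0.545).

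SNORD25 held 16, 14 and 21 fragments in the shRNA-Ddx5 medium libraries and 59, 39 and 47 with cytokines. SNORD28 held 2, 14 and 4 fragments in medium and 26, 25 and 38 with cytokines. All 3 shRNA-Ddx5 cytokine libraries were above the medium ones for both, at counts this low. In shRNA-NC libraries SNORD25 held 50, 34 and 6 fragments in medium and 43, 36 and 57 with cytokines. There SNORD28 held 16, 13 and 3 fragments in medium and 15, 23 and 51 with cytokines. For both, shRNA-NC medium library 3 was the lowest of the shRNA-NC libraries. For each fragment on its snoRNAs, Snhg1 held 12.9 to 14.5 exonic fragments in shRNA-NC medium, 9.05 to 14.5 in shRNA-Ddx5 medium, 14.8 to 19.9 in shRNA-NC with cytokines and 8.19 to 10.2 in shRNA-Ddx5 with cytokines. With cytokines the ranges of the hairpins did not overlap, and in medium they did; this ratio was added after the values were seen and has no test. For Gas5 the same ratio ran from 0.813 to 1.502 over all groups, and the ranges of the hairpins overlapped in each medium.

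**Figure D3:**
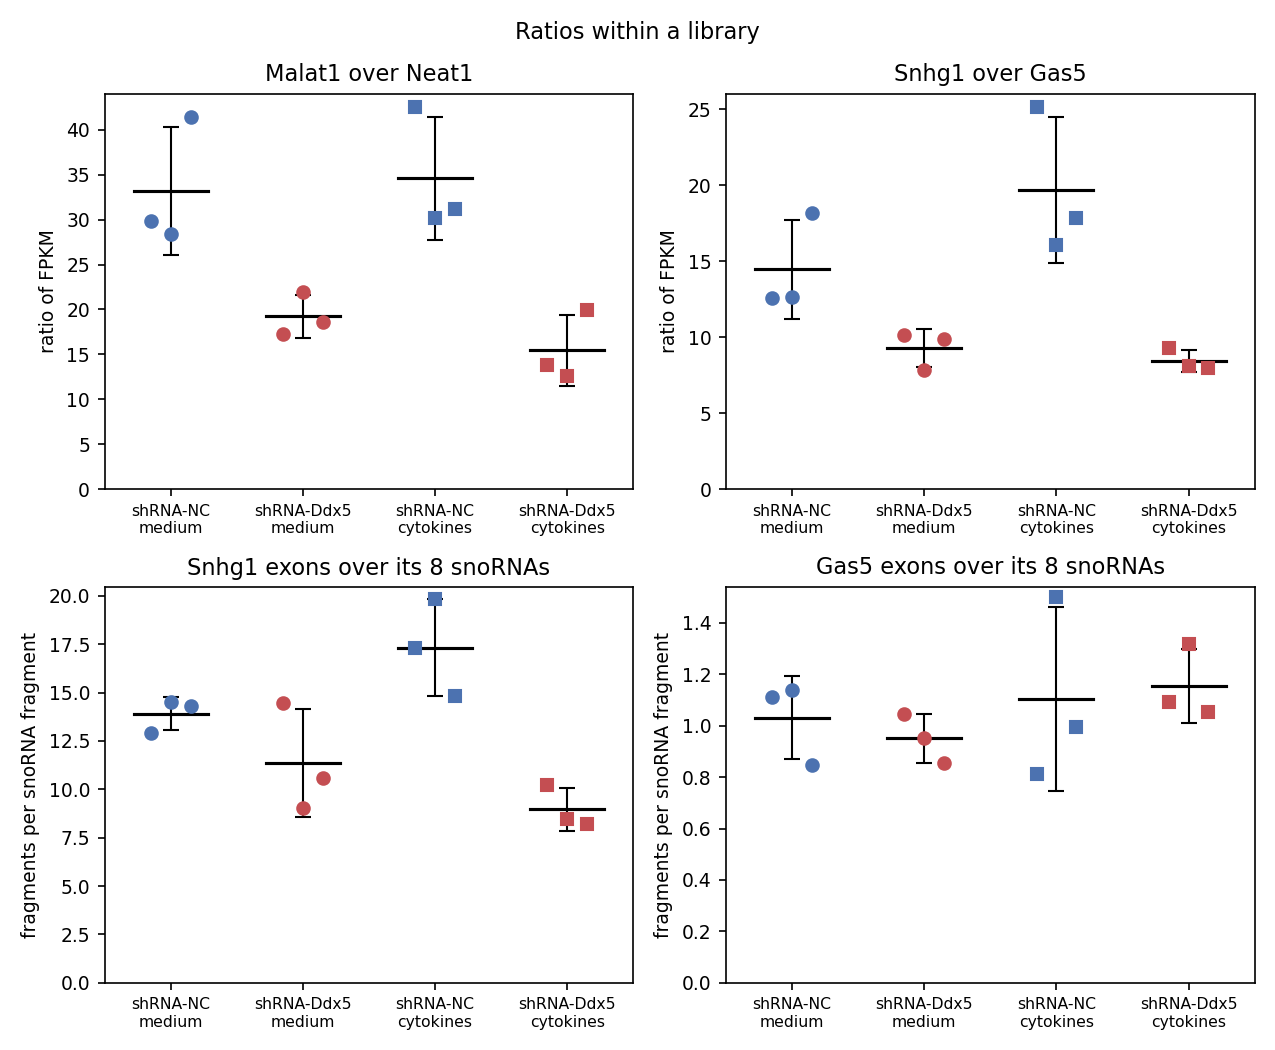
Ratios formed within each library, with 1 point per library, the group mean as a long bar and the SD as whiskers (n = 3): FPKM of Malat1 over Neat1 and of Snhg1 over Gas5, and exonic fragments of Snhg1 and Gas5 per fragment on the 8 snoRNA genes inside each. The first pair of ratios is lower in every shRNA-Ddx5 library than in any shRNA-NC library, and the Gas5 exon ratio overlaps between the hairpins in each medium.

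Other snoRNA hosts were read from a list of 26, of which 22 were tested, with Snhg1 and Gas5 left out of it. After knockdown 12 fell and 1 rose in each medium, and 10 of them fell in both; the median log2 fold changes were -0.41 and -0.55, beside 0.03 and 0.01 over all genes, of which 21.7% and 22.1% fell. Cytokines raised 11 and lowered 0 in each hairpin line by limma, 9 of them in both, with medians of 0.47 and 0.33, and 0 were lower at an unadjusted p under 0.05; of all genes, 18.6% rose with cytokines in shRNA-NC and 13.5% in shRNA-Ddx5 cells. The 6 that fell after knockdown in both media and rose with cytokines in both lines were Epb41l4aos, Snhg12, Snhg15, Snhg17, Snhg8 and Zfas1. Snhg1 moved as they did except that its cytokine change in shRNA-Ddx5 cells did not pass.

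Zfas1, the host of a group of C/D snoRNAs, went from 172 ± 45.7 to 46.2 ± 6.43 FPKM after knockdown in medium, a log2 fold change of -1.85 (limma adjusted p = 9.44e-06). Snhg6 went from 182 ± 44.4 to 56.4 ± 1.52 FPKM with cytokines (log2 fold change -1.65, limma adjusted p = 0.0006), and Snhg5 from 128 ± 14.6 to 41.1 ± 2.41 FPKM (log2 fold change -1.61, limma adjusted p = 8.35e-06). Dancr was the host that rose after knockdown, by 0.50 in medium and 0.40 with cytokines on the log2 scale. The list was chosen with earlier results of these libraries known, so its direction is not independent evidence.

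**Figure D4:**
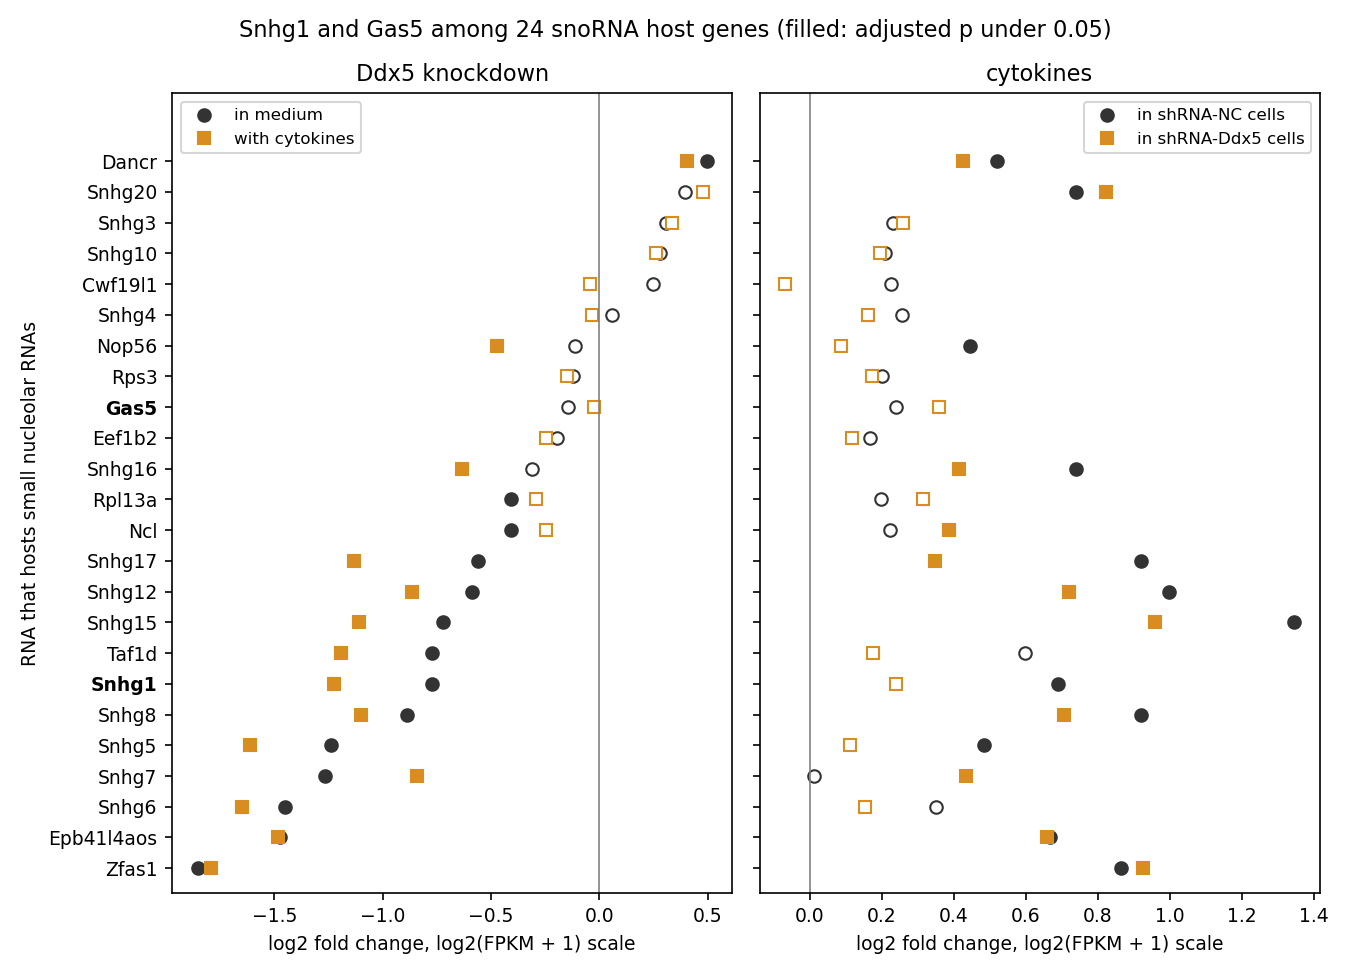
Log2 fold changes on the log2(FPKM + 1) scale of Snhg1 and Gas5 (bold) and 22 other snoRNA host genes, for Ddx5 knockdown (left, circles in medium, squares with cytokines) and for cytokines (right, circles in shRNA-NC, squares in shRNA-Ddx5 cells), with filled symbols past an adjusted p of 0.05. Most hosts that passed after knockdown lie left of 0 and all that passed with cytokines lie right of it, and Gas5 lies near 0 on the left.

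Spliced snoRNA hosts are substrates of nonsense-mediated decay, so its factors were read too. Of 17 tested, 2 rose and 4 fell after knockdown in medium, and 2 rose and 1 fell with cytokines, where 25.3% and 23.5% of all genes rose and 21.7% and 22.1% fell. Upf2, a core factor, fell in medium from 13.1 ± 1.79 to 5.40 ± 2.89 FPKM (log2 fold change -1.22, limma adjusted p = 0.00153) and had -0.53 with cytokines, which did not pass (limma adjusted p = 0.0871). Eif4a3 and Magohb, parts of the exon junction complex, rose by 0.79 in medium (limma adjusted p = 3.82e-05) and 0.79 with cytokines (limma adjusted p = 0.000113) on the log2 scale.

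Among 12 other tested non-coding RNAs, 1 rose and 5 fell in medium, and 2 rose and 5 fell with cytokines. They include Rmrp and Rpph1, at 0 to 25 and 0 to 20 fragments a library, and Mir155hg, which reached 1 FPKM only with cytokines. Tug1, a nuclear RNA, went from 23.7 ± 4.25 to 8.68 ± 2.84 FPKM in medium (log2 fold change -1.38, limma adjusted p = 0.000456). Pvt1, the neighbour of Myc, went from 18.9 ± 1.66 to 6.03 ± 0.300 FPKM with cytokines (log2 fold change -1.50, limma adjusted p = 2.24e-06). Dlx6os1, antisense to Dlx6, is the one counted as higher in medium, with 0.561 ± 0.124 FPKM in shRNA-NC and 3.01 ± 0.401 FPKM in shRNA-Ddx5 cells, but it passed the filter on low values only through the group where it is high, so its test is not read. Over all 450 long non-coding RNAs tested, 20.7% fell and 22.4% rose in medium, and 14.9% fell and 27.6% rose with cytokines.

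Genes whose log2(FPKM + 1) ran most nearly parallel over the 12 libraries were found for each RNA as a description. For Malat1 they were Zfp937 and Gxylt1 (Pearson r 0.98 for both), for Neat1 Brpf3 (0.94) and Plekhn1 (0.91), for Snhg1 Gpr137b and Tbc1d9 (0.99 for both), and for Gas5 SNORD28 of Snhg1 (0.90) and Snord53 (0.87). All 12 points share the 4 groups, so r can follow the group means. The Gas5 groups lay close together, and the part of single libraries in its r was not tested.

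The imprinted RNAs were at the floor. H19, Meg3 and Kcnq1ot1 had 0 fragments in each of the 12 libraries. A count of 0 allows up to 3 fragments, which is 0.0636 to 0.0873 FPKM for H19, 0.0112 to 0.0154 FPKM for Meg3 and 0.00174 to 0.00239 FPKM for Kcnq1ot1, for counting error only. Each of them overlaps other genes of the table: H19 overlaps Mir675, Meg3 overlaps Rtl1 on the other strand with Mir770 and Mir1906-1, and Kcnq1ot1 lies within Kcnq1 on the other strand. Kcnq1 too was listed at 0 throughout, as was Rpp14, an RNase P subunit, so a listed 0 was not read as absence of the RNA.

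Rian, a host of snoRNAs and miRNAs, held 15 fragments in all: 1, 0 and 0 in shRNA-NC medium, 2, 4 and 3 in shRNA-Ddx5 medium, 0 in each shRNA-NC library with cytokines, and 1, 3 and 1 in shRNA-Ddx5 with cytokines. All but 1 were in shRNA-Ddx5 libraries, at no more than 0.0618 FPKM. Rian also overlaps Rtl1 on the other strand, and with strand use not given, reads of the pair could not be told apart. Rtl1 had means of 0.00215 FPKM in shRNA-NC and 0.0232 in shRNA-Ddx5 medium, and of 0.00122 and 0.0146 with cytokines. Mirg, a miRNA host, held 26 fragments: 0 in shRNA-NC medium, 6, 0 and 0 in shRNA-Ddx5 medium, 0, 6 and 0 in shRNA-NC with cytokines, and 1, 11 and 2 in shRNA-Ddx5 with cytokines. Its fragments came mainly in single libraries. Neither passed the filter, so neither entered the tests above. With no filter on low values, in a fit of all 46731 genes, Rian passed after knockdown in medium (log2 fold change 0.06 on the log2(FPKM + 1) scale, limma adjusted p = 0.0253) and did not with cytokines (limma adjusted p = 0.126), on 0 to 4 fragments a library, and Mirg passed in no comparison. The planned ratios of Rian and Mirg to Meg3 were left out.

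Protein-coding neighbours in the same domains were mostly as low. Dlk1 and Dio3, which bound the chromosome 12 domain and are read from the paternal copy, were listed at 0 in all libraries, and Rtl1 held 0 to 15 fragments. Igf2, a growth factor reciprocally imprinted with H19, held 0 to 23 fragments. Of the 4 Dlk1-Dio3 neighbours tested, 0 fell after knockdown in either medium by limma or at an unadjusted p under 0.05. Begain was counted as higher in each, but it reached 1 FPKM only in the shRNA-Ddx5 libraries with cytokines, which carried it past the filter, so its test is not read: it lay between 0.460 and 0.987 FPKM in shRNA-NC and between 1.36 and 1.54 FPKM in shRNA-Ddx5 cells with cytokines.

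Of 6 tested neighbours of H19 and Kcnq1, 2 rose and 1 fell in medium, and 1 rose and 1 fell with cytokines, beside 25.3% up and 21.7% down over all genes in medium and 23.5% and 22.1% with cytokines. Cdkn1c, a cell cycle inhibitor that Kcnq1ot1 represses on the paternal copy, fell from 2.09 ± 0.184 to 1.30 ± 0.265 FPKM in medium (log2 fold change -0.43, limma adjusted p = 0.0247) and had -0.10 with cytokines (limma adjusted p = 0.587). Nap1l4, a histone chaperone, and Mrpl23, a mitochondrial ribosomal protein beside H19, rose in medium by log2 fold changes of 0.36 (limma adjusted p = 0.000555) and 0.42 (limma adjusted p = 0.0394).

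A further list of 30 imprinted genes again held Cdkn1c, Igf2 and Dlk1, and 14 of its genes were tested. After knockdown 6 rose and 3 fell in medium, Cdkn1c among the latter, and 4 rose and 3 fell with cytokines. All-gene shares were 25.3% up and 21.7% down, then 23.5% and 22.1%. Peg10, a placental gene of retroviral origin, rose in medium from 125 ± 19.9 to 274 ± 45.3 FPKM (log2 fold change 1.12, limma adjusted p = 0.000122). Asb4, its neighbour on chromosome 6, rose by 0.99 on the log2 scale in medium (limma adjusted p = 0.000436). Dcn, a matrix proteoglycan imprinted in the placenta, had 0.146 ± 0.205 FPKM in shRNA-NC and 4.55 ± 0.501 FPKM in shRNA-Ddx5 cells with cytokines; it is among those counted as higher but passed the filter only through shRNA-Ddx5 libraries, so its test is not read.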

How the data were processed

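Poly(A) RNA was purified on poly(T) beads and sequenced as paired reads of 150 nt. The submitters' notes name HISAT2 2.0.5, featureCounts 1.5.0-p3 and the mm10 build, whereas the chromosome accessions in the table are those of GRCm39, whose genome was used here. Strand use in counting is not given in the sources used here. The authors deposited FPKM per gene, normalized to gene length and a size for each library, for all 12 libraries. The size that the values imply was above the fragments on genes in some libraries and below them in others. FPKM times length came out as whole multiples of 1 fragment, within 0.01, for 100% of values, so fragment counts were recovered for depth and floors.

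The 9 RNAs were matched by symbol, and they and the gene lists were chosen with earlier results of these data known. Genes at 1 FPKM or more in at least 3 libraries (12368) were fitted in R 4.3.3 with limma 3.58.1 on log2(FPKM + 1), with 4 group means and eBayes with trend. Fold changes on this scale understate those of low genes. P-values were adjusted by Benjamini-Hochberg over all genes, with a threshold of 0.05. Shares and ratios were tested by exact permutation over libraries in Python 3.11.15. Counting limits cover counting error only. From each list the text names the 3 genes with the largest change in either knockdown contrast among those past the threshold with groups apart, plus Igf2, Cdkn1c, Kcnq1, Dlk1, Dio3 and Rtl1; other genes were named after their values were seen. The limma and permutation steps were tested on simulated data. Alternatives were other pseudocounts, filters, scalings, voom weights, untrended variance, the 6 libraries compared alone, a replicate block and leaving out each library.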

Additional observations from a re-analysis of the deposited data

Results flagged for a closer look

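Neat1 was singled out because the knockdown effect differed between the media by a test of the difference itself: the log2 fold change after knockdown was 0.84 higher with cytokines than in medium (limma adjusted p = 0.0389). It came from -0.61 in medium and 0.23 with cytokines, and the latter did not pass on its own. The call on the difference was lost in 9 of 12 fits that left out 1 library and with no filter on low values (adjusted p = 0.158). The shRNA-NC libraries in medium were the 3 highest of the 12 for Neat1. The groups of 3 libraries were too small for a test of single libraries that stand apart.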

How the results depend on the processing

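The replicate numbers are shared between groups but did not pair the libraries throughout (mean correlation of same-numbered deviations 0.268 and 0.00508 for the 2 knockdown comparisons, -0.178 and -0.0873 for cytokines, with 4, 2, 0 and 1 of 6 libraries closest to their own number). Other-numbered deviations had means of -0.143 and -0.00231 for knockdown and 0.0998 and 0.0436 for cytokines. Same numbers thus ran closer for knockdown in medium. With a replicate block, genes called numbered 5452 and 5232 after knockdown, 3769 and 2902 with cytokines and 687 for the interaction, and members called for the interaction went from 1 to 0 (Neat1 adjusted p = 0.0759). With no filter, 4 members in place of 3 passed after knockdown in medium, the added one being Rian, upwards on 0 to 4 fragments (adjusted p = 0.0253), 1 passed with cytokines (Malat1 adjusted p = 0.0510), 0 passed for the interaction, and Malat1 with cytokines in shRNA-NC cells had an adjusted p of 0.0920; more genes were tested there. Leaving out 1 library in turn, called genes ranged from 4762 to 6185 and 4435 to 6023 after knockdown, 3166 to 4550 and 2219 to 3826 with cytokines, the lowest without shRNA-Ddx5 medium library 3, and 493 to 1109 for the interaction, beside 1016. Of the latter, 493, 551 and 569 were without shRNA-Ddx5 cytokine library 3, 1 and 2, 546 without shRNA-Ddx5 medium library 3 and 620 without shRNA-NC medium library 2. Interaction calls among the 4 RNAs ranged from 0 to 1 and those for cytokines in shRNA-Ddx5 cells from 0 to 1. The cytokine difference in the joint share ran from -0.0385 to -0.0311. Signs turned in 5 of these fits, for log2 fold changes near 0 that passed no test: Gas5 after knockdown with cytokines (-0.096 to 0.058), the Gas5 interaction (-0.016 to 0.26) and Malat1 with cytokines in shRNA-Ddx5 cells (-0.36 to 0.069). The cause was not tested. Of 702 alternative values over 36 results, 662 were labelled unchanged. For fold changes, shares and ratios this meant the same direction and call. For counts of genes or members called it meant only a similar count, with no check of direction or of which genes were called. Leaving out a library outside a comparison could not move its fold change, so those values were bound to keep direction. Malat1, Neat1 and Snhg1 fell after knockdown in medium, past the threshold, in every alternative run.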
